A study of Mus musculus with 283 samples.

Results

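The variable segments of the T cell receptor alpha and beta chains were read out of whole-tissue RNA sequencing of mouse mammary tumours and normal mammary glands, the tumours taken with or without checkpoint antibodies. The members were all rows of the in vivo expression table whose symbol starts with Trav or Trbv followed by a digit. There were 163 of them among 45657 gene rows, 128 Trav (108 annotated as functional and 20 as pseudogenes in GENCODE vM21) and 35 Trbv (22 functional and 13 pseudogenes). Of the 163, 146 were above 0 in at least 1 library and 17 were at 0 in all 264 libraries.

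Each alpha or beta T cell assembles its receptor by joining 1 V segment to a J segment (with a D segment in between for the beta chain), and the cell then transcribes that rearranged gene together with a constant segment. V segment transcripts in a tissue therefore come mostly from T cells and show which segments those cells used. A sample with many clones spreads its transcripts over many segments, and a sample dominated by few clones does not. The germline set of segments differs between inbred mouse strains: deletions within the beta V locus and inactive alleles of single segments are known in several of them.

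The treated tumours came from mice given anti-CTLA4 (125 µg) together with anti-PD1 (10 mg/kg) and were taken at 3 days, 7 days or end stage, and untreated tumours were taken at the same labelled times. The column headers call the untreated 3 day libraries pretreatment. Transplanted tumours are described as grown orthotopically in hosts of the matching strain. Tumours entered the study at 5 mm. The models labelled sensitive to the antibodies are T11-UV, T11-Apobec, KPB25L and KPB25L-UV, where the UV and Apobec names mark derivatives of the parental line that are known to have been mutagenised. T11, p53-2225L and p53-2336R are labelled resistant, and treated libraries at 7 days exist for T11 alone among them. Further untreated models are KPB25L-Apobec, KPB-1A, KPB-1B, KPB-Primary, C3-TAG, PyMT, ILC-Pik3Ca/Cdh1Null and other p53 transplants. The exome samples of the same models give the strain: FVB for KPB25L, KPB25L-UV and KPB25L-Apobec, and BALB/c for T11, T11-UV, T11-Apobec, p53-2153F, p53-2224L, p53-2225L, p53-2336R and p53-9263-3. For C3-TAG, PyMT, KPB-1A, KPB-1B, KPB-Primary and the ILC model a strain is not given in the labels used here. Normal mammary glands came from 4 FVB and 5 BALB/c mice. Libraries of a group carry separate mouse numbers, except for 2 untreated 7 day KPB25L libraries of the same mouse. No replicate numbers are given, so replicates are numbered here in accession order only.

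The values are the authors' upper-quartile normalised signal on a linear scale. The estimated depth was 3.467 to 149.6 M reads per library, with a median of 51.42 M. The summed Trav and Trbv signal ran from 0 to 9204 per library with a median of 31.5, and the number of segments above 0 ran from 0 to 123 with a median of 20. In 10 libraries every segment was at 0. Counts of segments above 0 include values far below the worth of 1 read: Trav11 was above 0 in 10 libraries with a highest value of 1.57e-07. Because 38 Trav rows share an identical V exon with another row, in 19 groups such as Trav14d-2 with Trav14n-2, the split of reads within such a group is uncertain. In whole tissue, fewer T cells and less receptor RNA per T cell cannot be told apart. In 6 libraries labelled KPB25L-UV, transcripts of the T11 line were high: their mean over 50 T11 marker genes was 6.44 to 8.84 on the log2(signal + 1) scale, against a midpoint of 5.92 between the lines. These are replicate 3 of the untreated 3 day group, replicates 1 and 5 of the treated and replicates 3 and 4 of the untreated 7 day group, and replicate 2 of the untreated end stage group.

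The segments that separated the strains most lie in the beta locus on chromosome 6 (mm10), and the V exons of 4 of them are printed from that reference on the plus strand. Trbv13-1, Trbv13-2 and Trbv13-3, the mouse V beta 8 family, were at 0 in every FVB gland, and capitals in Trbv13-1 (33 bases) and Trbv13-3 (24 bases) mark letters that differ from Trbv13-2 after alignment. Trbv24, known as V beta 17, was high in FVB glands although the reference annotation calls it a pseudogene, and its capitals mark a TAG stop triplet at base 276 of 298, in frame with the cysteine codon that ends the segment's framework. The V exons lie at chr6:41116178-41116468 (Trbv13-1), chr6:41121539-41121832 (Trbv13-2), chr6:41130292-41130585 (Trbv13-3) and chr6:41218260-41218557 (Trbv24). The reference strain is neither FVB nor BALB/c, so these letters are the reference's and not those of the mice studied.
Trbv13-1: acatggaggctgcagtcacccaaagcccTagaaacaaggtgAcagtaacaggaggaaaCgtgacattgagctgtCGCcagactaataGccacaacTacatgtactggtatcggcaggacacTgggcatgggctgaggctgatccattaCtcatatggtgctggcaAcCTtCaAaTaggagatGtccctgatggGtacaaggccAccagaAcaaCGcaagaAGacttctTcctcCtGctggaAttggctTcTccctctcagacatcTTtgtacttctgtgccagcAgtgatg
Trbv13-2: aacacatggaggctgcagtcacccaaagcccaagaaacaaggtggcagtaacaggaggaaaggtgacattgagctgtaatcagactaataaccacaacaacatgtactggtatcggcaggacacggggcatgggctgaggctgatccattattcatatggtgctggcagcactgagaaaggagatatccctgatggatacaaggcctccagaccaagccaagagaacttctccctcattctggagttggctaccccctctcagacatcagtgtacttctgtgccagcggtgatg
Trbv13-3: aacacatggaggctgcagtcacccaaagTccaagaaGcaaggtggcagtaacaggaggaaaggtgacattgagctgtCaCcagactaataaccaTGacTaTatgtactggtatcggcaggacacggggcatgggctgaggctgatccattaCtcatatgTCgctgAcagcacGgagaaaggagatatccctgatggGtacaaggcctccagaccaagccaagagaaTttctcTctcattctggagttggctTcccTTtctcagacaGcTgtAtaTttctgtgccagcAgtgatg
Trbv24: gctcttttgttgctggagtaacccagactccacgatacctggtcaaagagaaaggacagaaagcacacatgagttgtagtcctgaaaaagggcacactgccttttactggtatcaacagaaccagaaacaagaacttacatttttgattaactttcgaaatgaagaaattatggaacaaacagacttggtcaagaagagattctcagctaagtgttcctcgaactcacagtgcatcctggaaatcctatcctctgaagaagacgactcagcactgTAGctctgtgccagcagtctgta
Trbv13-2 shares 91.8% of its letters with Trbv13-3 and 87.8% with Trbv13-1. Within these V exons, reads of the 3 family members can be told apart only at the marked letters or at bases missing from Trbv13-1. Their other exons are not printed.

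The comparison of FVB with BALB/c glands asks which segments the hosts use where no tumour line is present. In this tissue 9 neighbouring functional segments were at 0 in all FVB glands and were transcribed in BALB/c glands, while Trbv24 and Trbv26 were higher in FVB glands. Trbv13-1 was at 0 in FVB replicates 1 to 4 and at 805, 236, 195, 113 and 91.3 in the BALB/c glands. Trbv13-2 was at 0 in all 4 FVB glands and at 477, 132, 124, 113 and 82.9 in the BALB/c glands. Trbv13-3 likewise was at 0 in FVB and at 378, 121, 86.0, 73.9 and 58.6 in BALB/c. The same split held for Trbv14, at 0 in FVB and at 177, 98.8, 65.5, 62.4 and 53.6 in BALB/c. The groups do not overlap for any of these 4 segments, and no fold is given against a group listed at 0. The limma test across all genes gave adjusted p-values of 6e-22 for Trbv13-1, 2.435e-20 for Trbv13-2, 1.919e-22 for Trbv13-3 and 1.994e-18 for Trbv14. That fit takes its spread from glands and untreated tumours together. All 24 KPB-Primary, 4 KPB-1B and 5 PyMT libraries were at 0 for these segments, which narrows the pooled spread. Those p-values therefore do not measure the spread between glands. In a limma fit of the glands alone the adjusted p-values were 0.0001774, 0.0001029, 0.0002109 and 0.0001029 in the same order.

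Trbv24 was at 26.2, 249, 82.0 and 382 in FVB glands, against 12.8, 7.32, 4.10, 9.04 and 0 in BALB/c glands. All 4 FVB glands lay above all 5 BALB/c glands. On the log2(signal + 1) scale it was 4.42 higher in FVB (SE 0.718, limma adjusted p = 1.487e-05). Trbv26, its closest relative in the locus with 74.7% identical letters, was at 13.1, 156, 57.7 and 188 in FVB, against 12.8, 5.49, 2.05, 4.11 and 3.35 in BALB/c. It was 3.62 higher (SE 0.638, adjusted p = 6.843e-05), and again the groups do not overlap. In the other direction Trbv20 was at 1.75, 19.5, 8.10 and 53.7 in FVB, against 235, 67.7, 48.1, 84.6 and 64.5 in BALB/c, 2.72 lower in FVB (SE 0.506, adjusted p = 0.0001873). The alpha segment Trav14d-3-dv8, one of those that can also join the delta chain, was at 1.75, 31.0, 9.01 and 38.9 in FVB, against 155, 51.9, 50.4, 35.3 and 29.8 in BALB/c, and was 1.99 lower in FVB (SE 0.508, adjusted p = 0.01449). The highest FVB glands lay above the lowest BALB/c ones for Trav14d-3-dv8, and Trbv20 had 1 FVB gland above the lowest BALB/c gland. These tests take their spread from the glands and untreated tumours together. In a fit of the 9 glands alone Trbv13-1, Trbv13-2, Trbv13-3 and Trbv14 stayed called, while Trbv24 (limma adjusted p = 0.05547), Trbv26 (adjusted p = 0.06007), Trbv20 (adjusted p = 0.1766) and Trav14d-3-dv8 (adjusted p = 0.3185) were not.

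Of the 163 members, 21 passed the filter on low values in the fit that holds the glands. Among them 2 were called higher in FVB, where 1.07% of all genes tested were called higher, and 6 were called lower, where 1.22% of all genes were. The filter ranks genes by their mean, so a segment silent in 1 strain enters through the other, and these counts describe the segments rather than add to the test of each. Without the filter 133 members were tested. Then 10 were called higher in FVB (6 Trav and the 4 segments Trbv21, Trbv23, Trbv24 and Trbv26), beside 1.11% of all genes, and 29 were called lower (19 Trav, Trbv20 and the 9 neighbouring segments), beside 1.79%. Trbv1 was at 61.2, 627, 139.7 and 515 in FVB against 378, 231, 187, 117 and 102 in BALB/c and was not called (0.34, adjusted p = 0.9068), nor were Trbv19 (adjusted p = 0.6121), Trbv2 (adjusted p = 0.9307) and Trbv3 (2.01, adjusted p = 0.1623).

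Shares of the Trbv sum remove the difference in how much T cell RNA each gland held. Trbv3 took 12.8 to 16.3% of the Trbv signal in FVB glands and 1.69 to 2.42% in BALB/c glands, and Trbv1 took 17.01 to 23.5% in FVB and 6.57 to 11.6% in BALB/c. The share of Trbv24 was 9.32 to 12.6% in FVB and 0 to 0.712% in BALB/c. Trbv26 took 4.88 to 8.21% in FVB and 0.127 to 0.338% in BALB/c, and Trbv20 took 0.650 to 1.77% in FVB and 2.99 to 6.67% in BALB/c. None of these 5 shares overlapped between the strains, although the levels of Trbv1 and Trbv3 did. Among the other Trbv segments with signal in FVB glands, Trbv21 (0.325 to 0.960% in FVB, 0 to 0.127% in BALB/c) did not overlap either. The same held for Trbv23 (0.252 to 0.650% in FVB, 0 to 0.0647% in BALB/c). The shares of Trbv2, Trbv4, Trbv5, Trbv19, Trbv22, Trbv29, Trbv30 and Trbv31 overlapped. Because 9 segments absent from FVB glands took 34.2 to 37.0% of the BALB/c sum, every other BALB/c share is lowered by construction, also that of Trbv20, which was still higher there. Of the Trbv signal outside those 9, Trbv1 took 17.01 to 23.5% in FVB and 10.4 to 17.99% in BALB/c, which overlap. On the same scale the BALB/c glands had 2.59 to 3.74% for Trbv3, 0 to 1.08% for Trbv24, 0.197 to 0.517% for Trbv26 and 4.62 to 10.1% for Trbv20, and these 4 did not overlap with the FVB shares. The glands held lymph node and B cell RNA in widely different amounts: summed B cell markers ran from 2507 to 34754 in FVB and from 22309 to 275761 in BALB/c, and the summed lymph node markers from 3768 to 41661 and from 34529 to 229981. Their part in the levels was not tested.

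**Figure D1:**
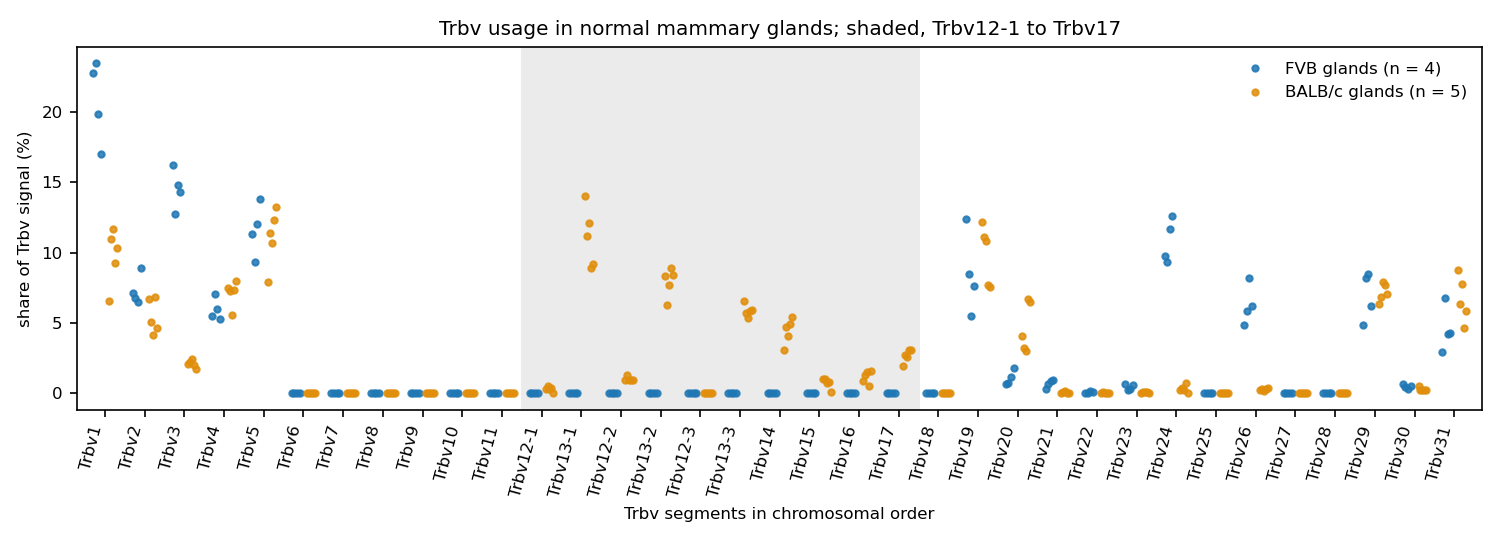
Share of the summed Trbv signal (percent, vertical axis) taken by each of the 35 Trbv segments, in chromosomal order along the horizontal axis, with 1 point per gland for FVB (blue, n = 4) and BALB/c (orange, n = 5) glands. In the shaded stretch every FVB point is at 0, which lowers all other BALB/c shares by construction, and outside it Trbv3, Trbv24 and Trbv26 take larger shares in FVB and Trbv20 a smaller one. Trbv21 and Trbv23 also take larger shares in FVB, up to 0.960% and 0.650%.

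The 9 segments are Trbv12-1, Trbv13-1, Trbv12-2, Trbv13-2, Trbv13-3, Trbv14, Trbv15, Trbv16 and Trbv17. They are consecutive functional segments over 50.01 kb of chromosome 6 (chr6:41113550-41163556, mm10), and the only other segment between them, the pseudogene Trbv12-3, was at 0 in all glands. The set was chosen after the gland values were seen, as the functional Trbv segments at 0 in every FVB gland and above 0 in at least 3 BALB/c glands. Its values in tumours were not used in the choice.

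In the tumours the 9 segments split the models in the same way as the glands. They were at 0 in all 27 KPB25L, all 27 KPB25L-UV and all 5 KPB25L-Apobec libraries, and also in all 7 KPB-1A, 4 KPB-1B, 24 KPB-Primary and 5 PyMT libraries. The other Trbv segments held an estimated 4147 reads in the KPB25L, KPB25L-UV and KPB25L-Apobec libraries together and 963 in KPB-Primary. They held few reads in KPB-1A (49.9), KPB-1B (73.7) and PyMT (47.8). The FVB glands held 9036 such reads but are at 0 for the set by the way it was chosen. Among the T11, T11-UV and T11-Apobec libraries 72 of 74 had signal in the set: 26 of 26 T11, 22 of 24 T11-UV and 24 of 24 T11-Apobec. In the 23 of these with at least 50 estimated Trbv reads the set took 19.8 to 51.0% of the Trbv signal, with a median of 40.3%, and in BALB/c glands it took 34.2 to 37.0%. The p53 transplants and the 1 library labelled T12, with few segment reads, had signal in the set in 39 of 61 libraries. All 10 ILC libraries had it, at 13.8 to 59.99% of the Trbv signal with a median of 38.9%. Of 11 C3-TAG libraries 1 did, with 3 estimated reads.

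The 6 libraries labelled KPB25L-UV that held T11 transcripts were also at 0 for all 9 segments, over an estimated 1131 reads in their other Trbv segments. The pseudogene Trbv6 was above 0 in 53 of 74 libraries of the T11 family, up to 7.71, and at 0 in all 9 glands. In the KPB25L family it was above 0 in 2 of 59 libraries, replicate 3 of the untreated 3 day group (1.14) and replicate 4 of the untreated 7 day group (4.21) of KPB25L-UV, and both are among those 6. A cultured T11 line carrying APOBEC, which holds no T cells, had Trbv6 at 0.631, and the other 2 cultured T11 lines were at 0.

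**Figure D2:**
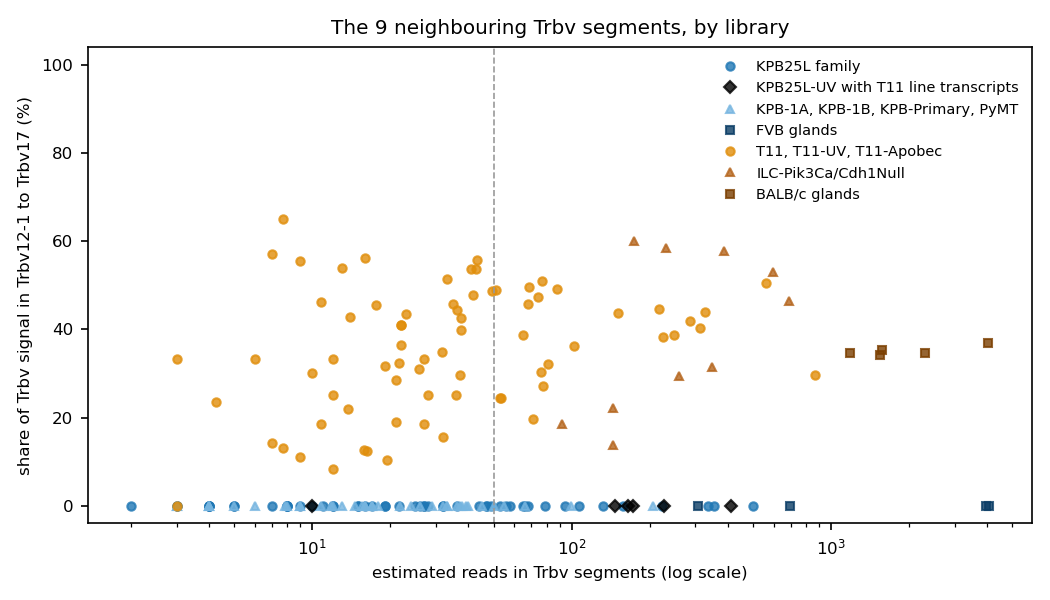
Share of Trbv signal in the stretch from Trbv12-1 to Trbv17 (percent, vertical axis) against the estimated reads in all Trbv segments of the library (log scale, horizontal axis), 1 point per library, with C3-TAG and p53 libraries left out and a dashed line at 50 reads. All KPB, PyMT and FVB gland libraries lie on 0, including the 6 with T11 transcripts (black diamonds), while nearly all T11, ILC and BALB/c gland libraries lie above 0, the ILC ones up to 59.99%, and the spread is widest where reads are few.

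Trbv24 and its neighbours also split the models in the tumours. Trbv24 was above 0 in 48 of 59 KPB25L family libraries and in 4 of 74 T11 family libraries, where its highest value was 1.08. In the 20 KPB25L family libraries with at least 50 Trbv reads it took 4.0 to 32.3% of the Trbv signal, with a median of 10.2%. Trbv26 was above 0 in 37 of 59 and 6 of 74 libraries of these families. Trbv21, annotated as functional, was above 0 in 21 of 59 and 0 of 74, and Trbv23, also functional, in 10 of 59 and 0 of 74. Trbv3 took a median of 14.3% of the Trbv signal in the KPB25L family and 1.27% in the T11 family, while Trbv20 took 0.432% and 4.84%. ILC libraries showed both kinds of segment: Trbv24 was above 0 in 9 of 10 with a highest value of 9.10, and Trbv13-2 in 10 of 10 with a highest value of 37.7.

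For untreated 3 day tumours, the FVB models KPB25L, KPB25L-UV and KPB25L-Apobec were set against the 8 BALB/c models with a strain label, each model with equal weight. The p53 models among the latter held few estimated Trbv reads, from 0 to 1 in p53-2153F up to 1 to 12 in p53-9263-3. The BALB/c model T11-Apobec held 81.1 to 287, and the FVB model KPB25L 12 to 47. How far the low p53 models carry the contrast was not tested. All 10 members that passed the filter in this fit were called higher in the FVB models, where 36.6% of all genes were called higher. The filter ranks genes by their mean, so a segment near 0 in some models, such as Trbv24, can enter through those where it is high. This count therefore describes the segments and does not add to the test of each. The largest differences were those of Trbv24 (2.91, SE 0.216, adjusted p = 7.121e-26), Trav13-2 (2.81, SE 0.283, adjusted p = 6.422e-17) and Trbv1 (2.55, SE 0.296, adjusted p = 9.793e-14). The pooled spread of Trbv24 is narrowed by libraries at 0: it was above 0 in 4 of 74 T11 family and 1 of 60 p53 libraries. A fit of the compared groups alone left 0 members to test after its filter. In the fit of all groups the 7 constant and CD3 genes were higher as well, with a median of 2.26, as were 7 of 8 B cell markers. The constant genes Trac and Trbc2 also had signal in cultured lines, which hold no T cells. The part of overall T cell RNA in the segment differences was not tested. Without the filter 131 members were tested: 44 were called higher (32 Trav and 12 Trbv), beside 27.3% of all genes, and 5 were called lower, beside 17.9% of all genes. The 5 are Trbv13-1, Trbv13-2, Trbv13-3, Trbv14 and Trbv6. Thus 4 of the 9 neighbouring segments were lower in the FVB models, while the 7 constant and CD3 genes were higher there.

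The therapy comparison at 7 days asks whether segment transcripts rose in tumours labelled sensitive. The summed Trav and Trbv signal of T11-UV was 222, 389, 63.5 and 408 in treated tumours, against 21.3, 26.4, 22.7 and 31.2 in untreated tumours. T11-Apobec had 171, 1058, 515 and 402 in treated tumours, against 193, 91.8, 114 and 76.03 in untreated ones. In KPB25L-UV the sums were 348, 923, 169.6, 915, 579 and 659 in treated tumours, against 100.5, 96.0, 391 and 300.3 in untreated tumours. KPB25L had 51.0, 39.6, 51.0 and 98.4 in treated tumours, against 22.4, 51.8 (the mean of 2 libraries of the same mouse) and 45.0 in untreated ones. The resistant model T11 had 11.1, 11.8, 17.6 and 33.2 in treated tumours, against 16.4, 10.6, 24.6 and 12.97 in untreated ones. The treated and untreated sums do not overlap in T11-UV. Untreated tumours above the lowest treated one numbered 1 in T11-Apobec, 2 in KPB25L-UV and 2 in KPB25L, and the arms of T11 are intermixed. The difference of mean log2(sum + 1) was 3.07 in T11-UV, 1.97 in T11-Apobec, 1.49 in KPB25L-UV, 0.58 in KPB25L and 0.11 in T11, and no test is given for a sum over members. With Trbv alone the KPB25L difference was 1.30, and as a share of all signal the T11-UV difference was 1.84. The sums of the KPB25L models include Trav13-2, which also had signal in cultured KPB25L lines without T cells. Without the libraries that held T11 transcripts the KPB25L-UV difference was 2.48.

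**Figure D3:**
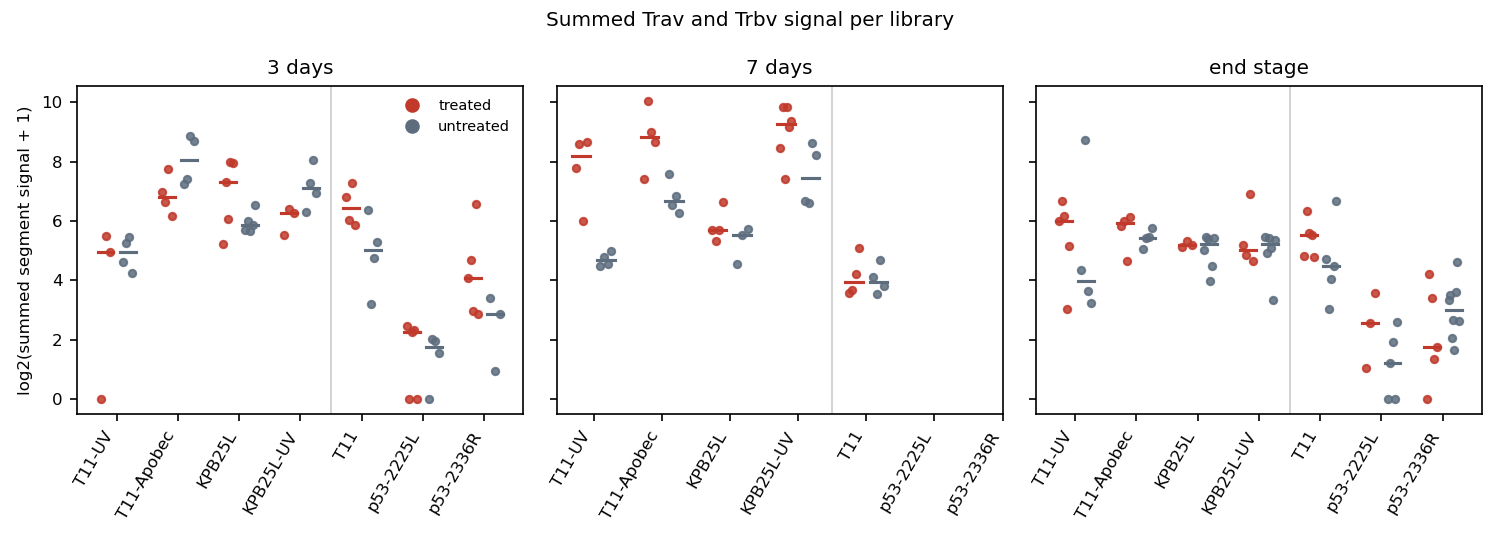
Summed Trav and Trbv signal per library as log2(sum + 1) on the vertical axis, for treated (red) and untreated (grey) tumours of 7 models at 3 days, 7 days and end stage, with bars at the group medians and a line between models labelled sensitive (left) and resistant (right). At 7 days the treated libraries of T11-UV lie above all untreated ones and those of T11 do not, and no p53 libraries exist at 7 days.

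Among single segments, 10 of the 163 passed the filter in the fit of all sensitive and resistant models, 9 Trbv and Trav13-2. Averaged over the 4 sensitive models at 7 days, all 9 Trbv segments rose under treatment and Trav13-2 was not called (-0.06, adjusted p = 0.9091), beside 15.5% of all genes called higher. The filter ranks genes by their mean over all fitted samples, so a segment can enter through the groups where it is high. This count, like those of single models, describes the segments and does not add to the test of each. Trbv4 rose most. It was at 4.33, 10.0, 2.59 and 9.61 in treated T11-UV tumours, against 0, 0.880, 0 and 1.56 in untreated ones. In KPB25L-UV Trbv4 ran from 17.3 to 110.0 with a median of 58.8 in the 6 treated tumours, against 1.04, 2.31, 23.3 and 8.20 in untreated ones. The arms of T11-UV do not overlap, and in KPB25L-UV 1 untreated tumour reached the treated range. The averaged difference of Trbv4 was 2.17 (SE 0.339, limma adjusted p = 1.89e-07).

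Trbv31, the beta segment that lies downstream of the constant genes in inverted orientation, was at 8.34, 123, 12.1 and 13.9 in treated T11-Apobec tumours, against 1.65, 0, 1.95 and 0.939 in untreated ones. Every treated tumour lay above every untreated one. Its averaged difference over the sensitive models was 2.04 (SE 0.362, adjusted p = 3.479e-06), and within T11-Apobec it was 3.47 (SE 0.724, adjusted p = 0.0001342). Trbv1 was at 28.1, 35.9, 2.59 and 14.6 in treated T11-UV tumours, against 1.42, 0, 0 and 0 in untreated ones. Trbv29 in the same model was at 15.1, 16.8, 9.07 and 31.3 in treated tumours, against 0, 0.880, 0 and 0 in untreated ones. Neither segment overlapped between the arms of T11-UV, where Trbv1 rose by 3.65 (SE 0.647, adjusted p = 3.307e-05) and Trbv29 by 3.90 (SE 0.712, adjusted p = 5.717e-05). The other segments called over the sensitive models were Trbv29 (1.77, SE 0.356, adjusted p = 3.87e-05), Trbv5 (1.76, SE 0.340, adjusted p = 1.985e-05), Trbv1 (1.54, adjusted p = 8.149e-05), Trbv19 (1.54, adjusted p = 0.0007047), Trbv3 (1.45, adjusted p = 0.0002724), Trbv2 (1.22, adjusted p = 0.0062) and Trbv24 (0.78, adjusted p = 0.005798). Trbv24 stood at or near 0 in both T11 models, so its average came from the KPB25L models.

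Model by model, 5 segments rose in T11-UV (Trbv1, Trbv2, Trbv4, Trbv5 and Trbv29, beside 4.32% of all genes called higher) and 5 in T11-Apobec (Trbv1, Trbv3, Trbv4, Trbv5 and Trbv31, beside 13.6%). In KPB25L-UV 4 rose, beside 8.24% of all genes: Trbv4 by 3.20 (SE 0.620, adjusted p = 0.0001357), Trbv19, Trbv3 and Trbv24 by 1.88 (SE 0.431, adjusted p = 0.001033). Trbv24 was at 12.1 to 54.4 with a median of 32.9 in treated KPB25L-UV tumours, against 5.18, 1.16, 8.78 and 30.5 in untreated ones. Its SE is pooled over all groups of the fit, and it was above 0 in 4 of 74 T11 family and 1 of 60 p53 libraries. That SE can therefore understate the spread within KPB25L-UV. With the flow cell given in the column headers as a term, 4 of the 9 segments stayed called over the sensitive models (Trbv4, Trbv29, Trbv31 and Trbv3), and 0 in T11-UV. Trbv4 rose in 3 of the 4 sensitive models, Trbv1, Trbv3 and Trbv5 in 2, and no test compared the models. Fits of 1 model's compared groups alone called 0 members, and their filter left 0 members to test in T11-UV, 1 in T11-Apobec and 2 in KPB25L-UV. In KPB25L no member was called, where 0% of all genes were called by limma and 1216 genes, none of them a member, had an unadjusted p under 0.05. Trbv4 there was at 15.6, 1.24, 0 and 4.93 in treated tumours, against 0, 3.18 and 0 in untreated ones (1.26, 95% interval -0.19 to 2.71).

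T11 showed no called segment, where 0% of all genes were called by limma and 57 genes, again none of them a member, had an unadjusted p under 0.05. Trbv4 was at 0.850, 0, 0.581 and 0 in treated T11 tumours, against 0.771, 0, 0 and 0 in untreated ones (0.18, 95% interval -1.16 to 1.52). A small change was not detectable at these levels. The difference between the sensitive models' response and that of T11 was tested in its own right, and 0 of 10 members were called, beside 0.0048% of all genes. The largest was that of Trbv31 (2.26, SE 0.809, 95% interval 0.66 to 3.86, adjusted p = 0.3439), and 5 of the 10 members and 1865 genes had an unadjusted p under 0.05. A larger response in sensitive models than in T11 was thus not called for any member.

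**Figure D4:**
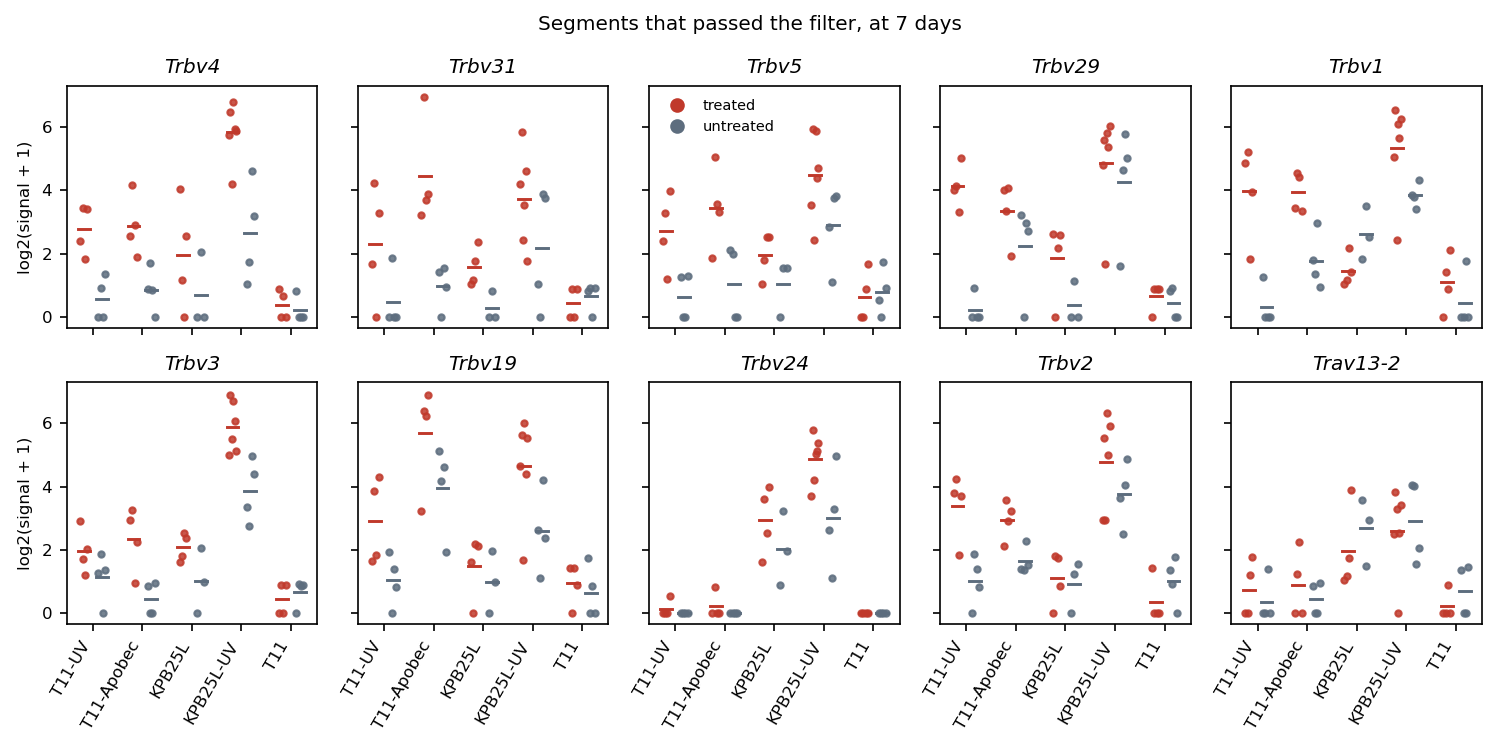
Level of the 10 segments that passed the filter, as log2(signal + 1) on the vertical axis, in treated (red) and untreated (grey) tumours of 5 models at 7 days, with 1 point per mouse and bars at the group means. Trbv24 is at or near 0 in the T11, T11-UV and T11-Apobec columns, Trbv29 and Trbv1 separate the arms of T11-UV, Trbv31 separates those of T11-Apobec, and T11 stays low for all 10.

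Without the filter 131 members were tested, and 46 rose over the sensitive models at 7 days (29 Trav and 17 Trbv), beside 10.4% of all genes called higher. In single models 23 members were called in T11-UV, all higher, beside 4.95% of all genes in either direction, and 32 in T11-Apobec, all higher, beside 17.9%. In KPB25L-UV 15 were called higher and 3 Trav lower, beside 12.4% in either direction. Trav7-3 and Trav3-3 were among the highest alpha segments. Trav7-3 ran from 4.65 to 59.3 in treated KPB25L-UV tumours, against 0 to 3.51 in untreated ones, and from 2.16 to 13.7 in treated T11-UV tumours, against 0 to 0.812 in untreated ones. Trav3-3 ran from 2.59 to 17.3 in treated T11-UV tumours, against 0 to 2.35 in untreated ones. For both segments these groups do not overlap.

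The genes that assemble the receptor complex moved with the segments. Over the sensitive models at 7 days, all 7 constant and CD3 genes (Trac, Trbc1, Trbc2, Cd3d, Cd3e, Cd3g and Cd247) rose, with a median of 2.64, beside a median of -0.06 over all genes tested. The coreceptor genes Cd4, Cd8a and Cd8b1 all rose, with a median of 2.81, and 3 of 4 tested gamma delta chain genes rose. Summed Cd3 signal in T11-UV was 2068 to 3258 in treated tumours and 167 to 695 in untreated tumours. B cell markers rose in 4 of 8 cases, natural killer markers in 5 of 5, lymph node markers in 4 of 8 and macrophage markers in 2 of 4. The summed B cell markers were 181 to 11901 in treated and 123 to 269 in untreated KPB25L-UV tumours, with replicate 2 at the top, and 117 to 232 in treated and 117 to 262 in untreated T11-UV tumours. Their part in the segment results was not tested, and in T11-UV the B cell sums of the arms overlapped. Segment sums include Trav13-2 and the pseudogene Trbv6, which also had signal in some cultured lines without T cells. Their part in the ratio to Cd3 signal was not tested. The ratio of summed segment signal to summed Cd3 signal was 0.0772 to 0.126 in treated KPB25L-UV tumours, against 0.147 to 0.180 in untreated ones. In T11 it was 0.116 to 0.175 in treated tumours and 0.196 to 0.300 in untreated ones, and the arms of these 2 models do not overlap. The arms overlap in the other 3: the ratio was 0.0215 to 0.197 in treated and 0.0307 to 0.187 in untreated T11-UV tumours, 0.0365 to 0.191 in treated and 0.143 to 0.222 in untreated T11-Apobec tumours, and 0.0154 to 0.122 in treated and 0.0529 to 0.298 in untreated KPB25L tumours.

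At 3 days, where the headers call the untreated libraries pretreatment, no member was called over the sensitive models, although 13.8% of all genes were called, and none had an unadjusted p under 0.05. The sums ran from 0 to 44.4 in treated and from 18.01 to 42.7 in untreated T11-UV tumours. They ran from 71.8 to 216.2 in treated and from 151 to 462 in untreated T11-Apobec tumours, and from 45.1 to 84.4 in treated and from 77.5 to 265 in untreated KPB25L-UV tumours. KPB25L had 36.8 to 255 in treated and 49.4 to 92.2 in untreated tumours. All 4 models overlapped between the arms. Without the filter 3 members were called lower (Trav10d, Trav5d-4 and Trav5n-4), beside 6.77% of all genes in either direction. Over the resistant models at 3 days 0 members were called by limma, beside 0% of all genes, while 452 genes, Trbv1 among them (0.91), had an unadjusted p under 0.05. T11 itself had sums of 57.8 to 154 in treated tumours and 8.22 to 81.2 in untreated ones.

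At end stage no member was called over the sensitive models, beside 0.0288% of all genes, and 1341 genes had an unadjusted p under 0.05, Trbv1 among them (0.78). None was called over the resistant models, beside 0% of all genes, and 1249 genes, no member among them, had an unadjusted p under 0.05. The sums ran from 7.12 to 102.0 in treated and from 8.36 to 427 in untreated T11-UV tumours, and from 24.1 to 69.4 in treated and from 32.2 to 53.6 in untreated T11-Apobec tumours. In KPB25L they were 34.2 to 39.2 in treated and 14.6 to 42.8 in untreated tumours. KPB25L-UV had 24.4 to 119.6 in treated and 9.22 to 43.3 in untreated ones, and T11 had 26.5 to 80.4 in treated and 7.26 to 102 in untreated ones. The arms overlapped in all 5 models. Sums of the KPB25L models include Trav13-2, which also had signal in cultured KPB25L lines. The Trbv rows of end stage KPB25L tumours held an estimated 2 to 8 reads in treated and 3 to 11 in untreated libraries.

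Under therapy, averaged over the 4 sensitive models, 8 of the 10 members tested were higher at 7 days than at 3 days, beside 3.12% of all genes called higher. A fit of the compared groups alone called 1 of the 8 members it tested. The summed signal of treated KPB25L tumours overlapped between the times, with 39.6 to 98.4 at 7 days and 36.8 to 255 at 3 days. Trbv19 was 1.68 higher at 7 days (SE 0.383, adjusted p = 0.002024), Trbv4 1.65 (SE 0.342, adjusted p = 0.0005492) and Trbv29 1.61 (SE 0.359, adjusted p = 0.001548). Trbv24 (0.50, adjusted p = 0.1973) and Trav13-2 (-0.19, adjusted p = 0.7771) were not called. At end stage against 7 days, 9 members fell, beside 23.8% of all genes called lower. Since the filter can admit a segment through groups where it is high, the counts of both comparisons do not add to the test of each segment. Trbv29 fell by 2.62 (SE 0.352, adjusted p = 2.061e-10) and Trbv4 fell by 2.55 (SE 0.335, adjusted p = 1.052e-10), and Trav13-2 was not called (0.33, adjusted p = 0.3866). Without the filter 45 members were called at 7 days against 3 days, all higher, beside 4.05% of all genes in either direction, and 71 at end stage against 7 days, all lower, beside 33.6%.

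Trav13-2 behaved unlike the other 9 members of the fit. It was above 0 in 53 of 59 KPB25L family libraries, with a median of 10.6 and a highest value of 25.5, and in 31 of 74 T11 family libraries, with a highest value of 4.27. It was at 0 in all 60 p53 libraries, above 0 in 17 of 35 other KPB libraries and 1 of 5 PyMT libraries, and reached 70.3 in C3-TAG. The 3 cultured KPB25L lines, which hold no T cells, had Trav13-2 at 11.95, 44.6 and 30.3, against 0.947, 0 and 0 in the 3 cultured T11 lines. Summed Cd3 signal in the 6 cultured lines was 0.316 to 3.597. Trav13-2 signal was thus also present in KPB25L cells grown without T cells, and how much of it in KPB25L tumours came from T cells was not tested. It was not called in any of the therapy comparisons with the filter.

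Untreated tumours differed widely in how much segment signal they held. The sums include Trav13-2, whose part from T cells in the KPB25L models was not tested. At 3 days the medians of the sums were 289.9 in T11-Apobec, 138 in KPB25L-UV, 120.0 in KPB25L-Apobec, 57.6 in KPB25L, 32.1 in T11, 30.6 in T11-UV, 6.33 in p53-2336R and 2.44 in p53-2225L. The ranges of T11-Apobec (151 to 462) and KPB25L-UV (77.5 to 265) overlap, as do those of T11 (8.22 to 81.2) and T11-UV (18.01 to 42.7). At end stage ILC libraries had 124 to 890.1 with a median of 339.6, against 4.01 to 127 in KPB-Primary and 7.58 to 153 in C3-TAG. PyMT had 6.66 to 15.4. The p53-2225L tumours had 0 to 5.00 in untreated end stage libraries, the lowest of the models with both arms. Normal glands held 391.9 to 5119 in FVB and 1770 to 9204 in BALB/c, and the highest tumour, a treated T11-Apobec tumour at 7 days, held 1058.

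The number of segments above 0 was 79 to 119 in FVB glands, 112 to 123 in BALB/c glands and 54 to 108 in ILC libraries, with a median of 84.5 in the ILC ones. At 7 days it was 20 to 94 in treated and 10 to 26 in untreated T11-UV tumours, 38 to 93 in treated and 41 to 60 in untreated T11-Apobec tumours, 32 to 72 in treated and 27 to 70 in untreated KPB25L-UV tumours, and 16 to 44 in treated and 10 to 27 in untreated KPB25L tumours. T11 had 9 to 32 in treated and 11 to 21 in untreated tumours. All 5 ranges overlap between the arms. Because more reads reach more segments, these counts carry the depth of T cell RNA with them.

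Evenness was taken as the effective number of segments, the exponential of the Shannon entropy of the shares, which equals the number of segments used when all are used alike. It is given for the 68 libraries with at least 50 estimated Trbv reads and the 50 with at least 50 Trav reads. FVB glands had 9.27 to 10.3 effective Trbv segments and BALB/c glands 14.2 to 14.9, without overlap. The effective number also grows with the number of segments present. The Trbv entropy divided by the logarithm of the number above 0 was 0.844 to 0.863 in FVB and 0.848 to 0.900 in BALB/c glands. These ranges overlap. Outside the 9 neighbouring segments the effective numbers were 9.27 to 10.3 in FVB and 8.47 to 8.997 in BALB/c. Since the 9 were chosen as those at 0 in FVB glands, leaving them out can change the BALB/c values only. For Trav the glands gave 52.4 to 71.6 in FVB and 65.7 to 67.5 in BALB/c. In 50 reads, a sample of Trbv would be expected to hold 10.7 to 11.2 segments in FVB glands and 14.3 to 14.9 in BALB/c glands.

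In tumours under therapy the effective Trbv number could be set side by side in few groups. KPB25L-UV at 7 days had 8.31 to 9.53 in 5 treated and 6.94 to 9.96 in 3 untreated libraries. T11-Apobec at 7 days had 8.22 to 11.1 in 4 treated and 6.20 to 8.61 in 3 untreated libraries, and at 3 days 9.01 to 13.4 in 3 treated and 10.4 to 14.1 in 4 untreated ones. All 3 pairs overlap. T11-UV at 7 days had 9.74 to 14.5 in 3 treated libraries, and none of its untreated libraries held 50 Trbv reads. In T11-Apobec at 7 days Trbv19 took 6.53 to 40.6% of the Trbv signal in treated libraries and 32.5 to 40.2% in untreated ones. The share of Trbv31 was 3.99 to 18.4% in treated and 0 to 2.82% in untreated T11-Apobec tumours, without overlap. The lowest Trbv evenness in tumours was in KPB-Primary, with 3.25 to 9.76 effective segments in the 5 of 24 libraries with enough reads, where the leading segment took 18.2 to 49.4%. The ILC libraries spanned 7.23 to 16.9. A treated end stage T11 library had 5.64, with 45.1% of its Trbv signal in Trbv14, and an untreated one had 14.9. The effective Trav number was 14.6 to 33.4 in 3 KPB-Primary and 20.4 to 62.7 in 10 ILC libraries. At 7 days it was 22.04 to 37.98 in 5 treated and 35.5 to 41.4 in 2 untreated KPB25L-UV libraries, and 25.02 to 30.4 in 3 treated T11-Apobec libraries against 8.33 in 1 untreated one, where Trav7-3 took 41.7% of the Trav signal.

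**Figure D5:**
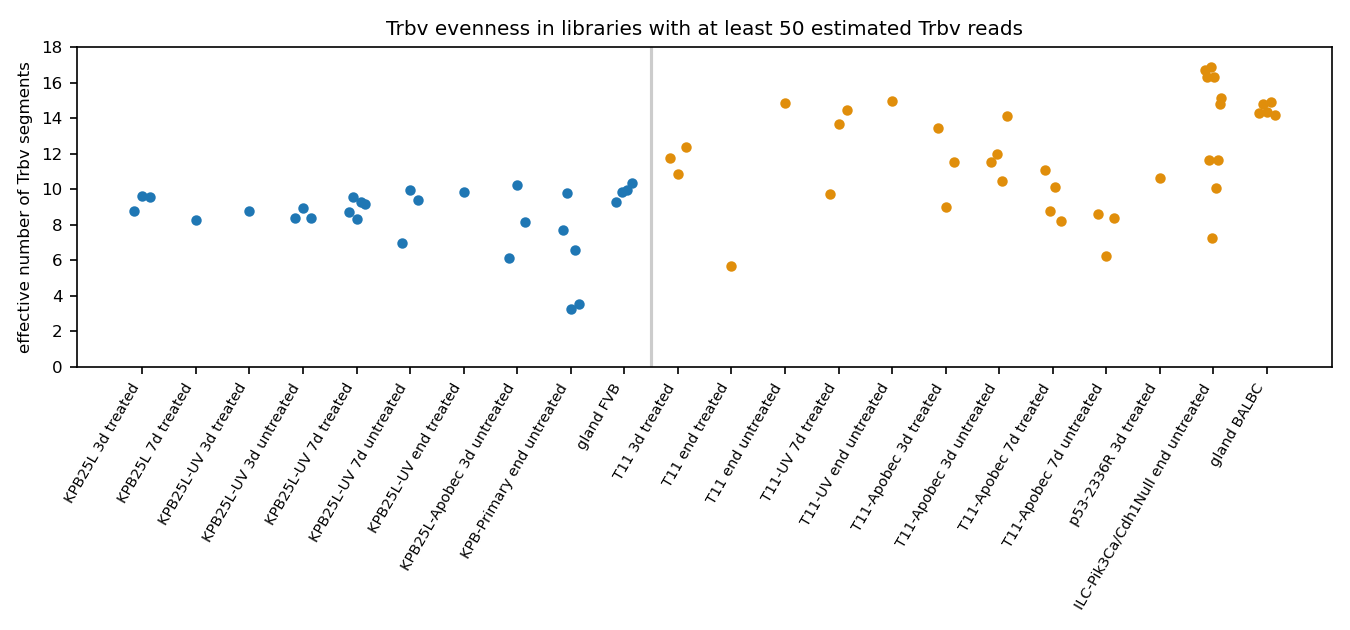
Effective number of Trbv segments (vertical axis) for the 68 libraries with at least 50 estimated Trbv reads, 1 point per library, by model, time and arm, with FVB glands and KPB models on the left (blue) and T11, p53, ILC and BALB/c glands on the right (orange). FVB glands lie between 9.27 and 10.3 and BALB/c glands between 14.2 and 14.9, and the treated and untreated groups overlap for KPB25L-UV at 7 days and T11-Apobec at 3 and 7 days.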

How the data were processed

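Total mRNA libraries were made with a TruSeq mRNA kit and sequenced as paired reads, per the labels' protocols. STAR, SAMtools, Picard and Salmon and the build mm10 are named in the submitters' processing notes. The deposited values are signal, upper-quartile normalised by the authors per the file headers, on a linear scale, so no count model was used. Whether reads were counted by strand is not given in the sources used here. From the table of 264 in vivo libraries, 39 rows named as dates and 28 with a repeated symbol were left out, and 45657 remained. A second table holds 6 cultured lines and was normalised separately, so no level was tested across the tables.

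The worth of 1 read was estimated as the commonest low positive value of a library. Between 28.26 and 82.78% of values per library (median 70.69%) were whole multiples of it within 0.01, so depths and reads are estimates and no counting interval is given. The 2 libraries of a single mouse were averaged in the tests. log2(signal + 1) was tested with limma 3.58.1 in R 4.3.3 (empirical Bayes with a trend), with a separate mean for each combination of model, time and arm. Genes had to be above 0 in at least 4 samples, and of those the 2/3 with the highest means were tested. The fit of sensitive and resistant models held 192 samples in 47 groups and tested 20849 genes, and the fit of glands and other untreated models held 63 samples and tested 20877. Calls were made at a Benjamini-Hochberg adjusted p of 0.05 across all tested genes. P-values rest on the spread between samples within groups, pooled over all groups of the fit and moderated across genes. That spread may be technical. Sums, counts and evenness got no test. Tables and figures were made in Python 3.11.15 with pandas 2.3.3, numpy 2.4.6 and matplotlib 3.10.9, and the fit was tested on simulated data.

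Up to 6 called segments per direction with the largest difference and up to 3 not called with the highest mean could be named per comparison. The 8 Trbv and 8 Trav with the highest mean, all called Trbv of the gland comparison and leading segments could be named too. Other segments named were chosen after their values were seen. The members, the marker and reference lists and the tests were chosen with earlier results of these data known.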

Additional observations from a re-analysis of the deposited data

Results flagged for a closer look

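Within groups of 4 to 10 libraries, Dixon's criterion at the 95% level marked 14 of the 91 sets of values tested as holding a library far from the rest, and chance marks about 1 in 20 sets. The summed segment signal stood apart in 8 of them and the number of segments above 0 in 6.

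Untreated KPB25L-Apobec replicate 3 at 3 days had a summed signal of 978, against 21.5 to 154 in the other replicates. Its summed B cell markers were 20651, against 121 to 669, and their part in the sum was not tested. Untreated T11-UV replicate 2 at end stage had a sum of 427 with 83 segments above 0, against 8.36 to 19.4 and 7 to 18 in the others. Its B cell markers were 4992, against 96.7 to 160, and its lymph node markers 12202, against 137 to 329. Untreated T11 replicate 5 at end stage had a sum of 102, against 7.26 to 25.5, with B cell markers of 2207, against 67.2 to 126. BALB/c gland replicate 1 had a sum of 9204, against 1770 to 3420, with B cell markers of 275761, against 22309 to 35060.

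Treated KPB25L-UV replicate 3 at end stage had a sum of 119.6 and 61 segments, against 24.4 to 35.6 and 12 to 20, with B cell markers of 162, against 194 to 466. Treated p53-2336R replicate 4 at 3 days had a sum of 94.1 and 43 segments, against 6.36 to 24.96 and 5 to 15, with T cell markers of 1646, against 183 to 346. Untreated p53-2336R replicate 7 at end stage had a sum of 23.6 and 25 segments, against 2.12 to 11.3 and 2 to 12, with T cell markers of 491, against 85.9 to 261, B cell markers of 219, against 50.9 to 152, and lymph node markers of 256, against 29.7 to 112. Untreated p53-9263-3 replicate 3 at 3 days was the lowest of its group, with a sum of 1.72 and 1 segment, against 18.5 to 19.8 and 13 segments in each of the others, with B cell markers of 409, against 157 to 182. Untreated p53-2153F replicate 4 at 3 days had 6 segments above 0, against 0 to 1, with B cell markers of 92.3, against 91.5 to 198. The part of these markers was not tested.

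In the table of cultured lines, Trav13-2 was at 11.95, 44.6 and 30.3 in the 3 KPB25L cultures, against 0.947, 0 and 0 in the 3 T11 cultures. No T cells are present in such cultures, and the origin of the signal was not tested.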

How the results depend on the processing

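No paired analysis was possible because the labels give no replicate numbers that groups share. The counts of called members depended most on the filter: without it 46 were called over the sensitive models at 7 days, 23 in T11-UV, 32 in T11-Apobec, 18 in KPB25L-UV, 3 at 3 days, 45 at 7 days against 3 days, 71 at end stage against 7 days, 49 in FVB against BALB/c models and 39 in the glands, since 131 or 133 members were then tested in place of 10 or 21. Fits of the compared groups alone called 0 in T11-UV, T11-Apobec, KPB25L-UV and the model comparison, 1 at 7 days against 3 days and 5 in the glands, with 0, 1, 2, 0, 8 and 23 members left to test in that order. With flow cell as a term 4 stayed called over the sensitive models and 0 in T11-UV, where Trbv2 (-0.47) and Trbv5 (-2.05) turned round. The cause was not tested. A pseudocount of 16 gave 2 in T11-UV and 7 in KPB25L-UV.

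Leaving out each replicate in turn gave 8 to 10 calls over the sensitive models, 2 to 6 in T11-UV, 3 to 6 in T11-Apobec, 2 to 7 in KPB25L-UV, 7 to 9 at 7 days against 3 days, 8 to 10 at end stage against 7 days, 9 to 10 in the model comparison and 5 to 7 in the glands, and 0 to 0 in the other comparisons. The counts moved by over 1.5 times without treated T11-UV replicates 1 (3), 2 (2) or 4 (2), untreated T11-UV replicates 1 (3) or 3 (2), treated T11-Apobec replicate 2 (3), treated KPB25L-UV replicates 2 (2), 3 (7) or 4 (2), untreated KPB25L-UV replicate 2 (2), and BALB/c gland replicate 1 (5).

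The log2 difference of sums became 2.48 in KPB25L-UV at 7 days without the libraries with T11 transcripts, 1.30 at 7 days and -0.29 at end stage in KPB25L with Trbv alone, and 1.84 in T11-UV as a share of all signal. The gland difference in Trbv effective number, -4.65, was -3.74 as segments expected in 50 reads and 1.15 outside the 9 neighbouring segments. Outside them the gland differences in median Trbv share, chosen after seeing the data, were 5.538 percentage points for Trbv1, 11.29 for Trbv3 and -5.55 for Trbv20, against 10.99, 12.49 and -3.148 over all Trbv. Depth limits the untreated tumours most: few hold 50 reads per locus. The other 528 values of counts of calls, sums, evenness and shares were not marked as moved from their main value. That mark rests on the size of the change and does not check direction or a threshold. Of the values of single segments, 1697 kept their direction and side of the threshold, and 58 lost their call.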
